A study of Homo sapiens with 6 samples.

Results

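Retinoic acid genes were examined in BJ fibroblasts, an established line from human foreskin, during reprogramming towards pluripotency. The set held 9 genes of 27788 in the deposited table: the hydroxylases CYP26A1 and CYP26B1, the binding proteins CRABP1 and CRABP2, the receptors RARA, RARB and RARG, the dehydrogenase ALDH1A3 and the reductase DHRS3. They were chosen by symbol for their roles, with the fall of CYP26B1 in CD201-only cells already known. For these 9 genes, differences between CD201-only and double-positive cells are therefore given as descriptions without a test, as is every difference of CYP26B1. Other genes of the pathway were tested in all 3 comparisons.

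All cells carried lentiviral OCT4, SOX2, KLF4 and MYC on 2 polycistronic constructs and were collected on day 8. They grew in serum first, were moved to Matrigel and then given embryonic stem cell medium with serum replacement, and were sorted by the surface proteins CD13 and CD201. The 3 groups were double-negative cells (CD13-, CD201-), CD201-only cells (CD13-, CD201+) and double-positive cells (CD13+, CD201+), with 2 libraries each. Nothing in the labels says that the libraries of a group came from separate cultures, so p-values measure only the spread between these libraries. BJ is a single line, unsorted or uninfected cells were not analysed here, and in sorted bulk RNA fewer cells of a type and less RNA per cell cannot be told apart.

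Retinoic acid is made from retinol in 2 steps. Retinol is oxidised to retinal, which reductases such as DHRS3 can turn back, and retinal dehydrogenases of the ALDH1A family oxidise retinal to the acid. Inside the cell CRABP2 carries the acid to its nuclear receptors, the RARs, which bind DNA with RXR partners. CYP26 enzymes hydroxylate the acid and so end its action. In skin, retinoic acid acts on keratinocyte differentiation and on matrix production by fibroblasts, and in many cells it raises RARB, CYP26A1 and DHRS3, which makes these genes common readouts of the pathway.

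The promoter sequences of the readout genes RARB and CYP26A1 are shown because they hold the DNA motif that RARs are known to bind. They were taken from RefSeq on GRCh38.p14, not from these libraries, which were processed on hg19. The motif searched was a direct repeat of hexamers with 5 bases between them, each hexamer being AGGTCA or its variant forms AGTTCA and also GGTTCA and likewise GGGTCA, on both strands. Spacings of 1 and 2 bases, which RAR pairs are also known to bind, were searched in the same way. Of 17 windows around the starts of the 9 genes, each from 250 bases before to 50 after a start, 2 held the repeat with 5 bases, 1 in RARB and 1 in CYP26A1, and 0 held a repeat with 1 or 2 bases. Of all 35116 RefSeq windows, 31 (0.0883%) held the repeat with 5 bases, 46 (0.131%) that with 1 base and 14 (0.0399%) that with 2. Capitals mark the repeat in the 250 bases before one RARB start (chr3:25428013-25428262, plus strand), where it ends 36 bases before the start, and in a short stretch before one CYP26A1 start (chr10:93073797-93073825, plus strand), where it lies on the opposite strand as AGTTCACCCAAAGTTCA and ends 73 bases before the start. The 250 bases before the single CYP26B1 start (chr2:72147863-72148112, minus strand) are shown for comparison, and none of these repeats was found in them.
RARB: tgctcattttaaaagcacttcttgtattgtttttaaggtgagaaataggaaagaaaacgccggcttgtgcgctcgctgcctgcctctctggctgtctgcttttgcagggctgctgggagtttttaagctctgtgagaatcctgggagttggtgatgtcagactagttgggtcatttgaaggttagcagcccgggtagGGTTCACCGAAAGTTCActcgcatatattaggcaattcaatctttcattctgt
CYP26A1: taaagaTGAACTTTGGGTGAACTaattgt
CYP26B1: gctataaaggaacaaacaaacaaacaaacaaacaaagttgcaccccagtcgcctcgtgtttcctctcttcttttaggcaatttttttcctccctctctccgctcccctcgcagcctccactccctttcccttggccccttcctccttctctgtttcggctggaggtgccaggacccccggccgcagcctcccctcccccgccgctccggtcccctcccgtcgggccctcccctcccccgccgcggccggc

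Values are FPKM, fragments scaled to transcript length and library depth, as deposited, so levels can be set beside each other between genes. The libraries had 11983 to 12168 genes at 1 FPKM or more and relative depths of 0.729 to 1 of the deepest. ANPEP, which encodes CD13, averaged 36.0 and 28.9 FPKM in double-negative and CD201-only cells, against 155 in double-positive cells, and PROCR, which encodes CD201, averaged 17.3 in double-negative cells, against 47.4 and 51.9 in both CD201+ groups. All 8 fibroblast markers examined were detected, and their summed level was 4210 to 4211 FPKM in double-negative libraries, 3746 to 3767 in CD201-only libraries and 8400 to 8506 in double-positive libraries. The 8 pluripotent cell markers summed to 118 to 123, 78.2 to 79.4 and 36.4 to 36.6 FPKM in the same groups. Epithelial markers summed to 3064 to 3075, 3972 to 4043 and 2012 to 2080 FPKM, and endothelial markers to 14.1 to 14.6, 25.3 to 27.1 and 19.1 to 21.0, in that order. Nearly all of the endothelial sum was TEK, which averaged 13.7, 25.5 and 19.0 FPKM. VWF averaged 0.390, 0.522 and 0.949 FPKM, and PECAM1 and CDH5 were lower than VWF in every group. Blood and melanocyte markers were absent or low, at 1.30 FPKM at most, with CD3E, MLANA, TYR and DCT listed at 0 in every library.

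**Figure D1:**
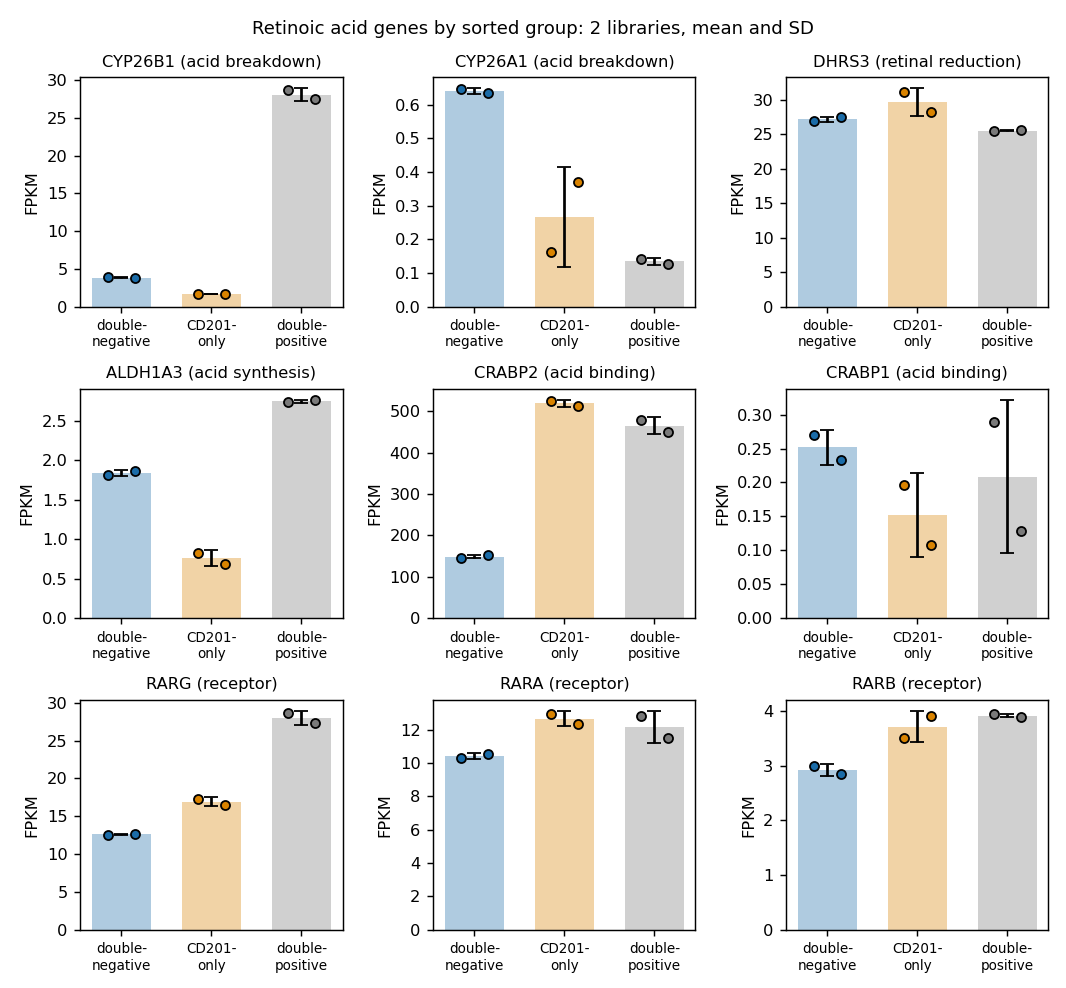
FPKM of each of the 9 genes in the double-negative, CD201-only and double-positive groups. Points are the 2 libraries of a group, bars their mean and error bars the SD, and each panel has its own linear axis from 0. CYP26B1 stood highest in double-positive cells, CRABP2 lowest in double-negative cells, and DHRS3 lay between 25.5 and 31.1 FPKM in all 6 libraries.

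CYP26B1, which breaks down retinoic acid, differed most between the groups among the 9 genes, by the ratio of group means. It was at 3.91 and 3.78 FPKM in double-negative libraries, 1.66 and 1.70 in CD201-only libraries and 28.7 and 27.5 in double-positive libraries. The groups did not overlap, and double-positive cells held 16.8 times the mean of CD201-only cells and 7.31 times that of double-negative cells. On the log2(FPKM + 1) scale, which understates changes of low genes, the difference from double-positive cells was -3.44 in CD201-only and -2.59 in double-negative cells. It was chosen by its difference in CD201-only cells. Among the 12210 genes averaging 1 FPKM or more it ranked 6 by depth of fall there, between SNHG25 at -3.51 and KISS1 at -3.39. In double-negative against double-positive cells it ranked 26, and this comparison shares the double-positive libraries. Between the CD13- groups, double-negative cells held 2.29 times the mean of CD201-only cells (log2 difference 0.86). The summed fibroblast markers stood in the same group order as CYP26B1. Of the 8 markers, THY1 and VIM did not: THY1 averaged 1642 FPKM in double-negative cells, 1175 in CD201-only cells and 1370 in double-positive cells, and VIM averaged 1427, 1571 and 2544 FPKM in the same groups. Their part in its level was not tested.

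CYP26A1, the other enzyme of breakdown and a readout of retinoic acid, stood in another group order at a far lower level. It was at 0.646 and 0.635 FPKM in double-negative libraries, 0.161 and 0.370 in CD201-only libraries and 0.142 and 0.126 in double-positive libraries. Double-negative libraries were above all others, with means of 0.641 ± 0.00813 in double-negative and 0.134 ± 0.0110 FPKM in double-positive cells (SD, n = 2 each). The CD201-only libraries differed from each other by more than their lower value differed from double-positive cells. CYP26A1 was under the minimum mean of 1 FPKM and had no test. The sum of the pluripotent cell markers stood in the same group order. Of the 8 markers, NANOG and UTF1 did not, each being highest in CD201-only cells. NANOG averaged 3.93 FPKM in double-negative cells, 4.18 in CD201-only cells and 1.64 in double-positive cells. UTF1 averaged 4.16, 5.22 and 2.12 FPKM in the same groups. The part of these markers in the level of CYP26A1 was not tested. CYP26A1 made up 14.2% and 14.4% of summed CYP26A1 and CYP26B1 FPKM in double-negative libraries, 8.84% and 17.9% in CD201-only libraries, and 0.491% and 0.457% in double-positive libraries.

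CRABP2, which delivers retinoic acid to the receptors, was the most abundant of the 9 genes, at percentile 95.7 of tested genes by level in double-negative cells, 98.9 in CD201-only cells and 98.9 in double-positive cells. Its values were 146 and 151 FPKM in double-negative libraries, 525 and 513 in CD201-only libraries and 479 and 450 in double-positive libraries. Double-negative cells thus stood apart below both groups of CD201+ cells. CRABP2 fell in double-negative against double-positive cells (log2 change -1.64, SE 0.0356, adjusted p = 1.16e-07, limma) and against CD201-only cells (-1.80, SE 0.0356, adjusted p = 3.06e-07). Against CD201-only cells its change ranked 21 by depth of fall among 12210 genes. CD201-only cells were 1.12 times the double-positive mean, a log2 difference of 0.16 that was 0.08 after median-ratio rescaling. Keratinocyte markers summed to 10.5 to 11.4 FPKM in double-negative libraries, 19.2 to 19.5 in CD201-only libraries and 42.5 to 44.0 in double-positive libraries, with TP63 and KRT1 at or near 0. This sum was lowest where CRABP2 was lowest. So were KRT5, averaging 2.23, 9.79 and 5.93 FPKM in the same groups, and KRT14, averaging 1.82, 2.72 and 29.7. KRT10 averaged 6.81, 6.77 and 7.21 FPKM. Its double-negative libraries (7.29 and 6.33) and CD201-only libraries (6.64 and 6.90) overlapped. IVL averaged 0.0654, 0.0277 and 0.370 FPKM, near the floor and lowest in CD201-only cells. The part of these markers in CRABP2 was not tested.

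CRABP1, a second cytosolic carrier of retinoic acid, was barely detected. Its values were 0.270 and 0.233 FPKM in double-negative libraries, 0.196 and 0.108 in CD201-only libraries and 0.289 and 0.129 in double-positive libraries. Multiplied by the relative depths, they stood as 4, 4, 3, 2, 4 and 2 in the same order, within 0.1 of whole numbers, which are the smallest numbers of fragments that match. Differences of CRABP1 were not detectable at this depth, and it had no test.

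The receptors were all present, and each stood lowest in double-negative cells. RARG, the receptor best known in epidermis, was at 12.5 and 12.7 FPKM in double-negative libraries, 17.3 and 16.5 in CD201-only libraries and 28.6 and 27.3 in double-positive libraries, with no overlap. It fell in double-negative cells against double-positive cells (-1.09, SE 0.0445, adjusted p = 1.58e-06) and against CD201-only cells (-0.40, SE 0.0445, adjusted p = 0.000549). CD201-only cells held 0.605 times the double-positive mean (log2 difference -0.69). RARG thus stood at 3 separate levels, rising in the order double-negative, CD201-only and double-positive.

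RARA, the receptor present in most tissues, was at 10.3 and 10.5 FPKM in double-negative libraries, 13.0 and 12.4 in CD201-only libraries and 12.8 and 11.5 in double-positive libraries. The values of CD201-only and double-positive cells overlapped, and those of double-negative cells lay below both. RARA fell in double-negative against double-positive cells (-0.20, SE 0.0617, adjusted p = 0.0222) and against CD201-only cells (-0.26, SE 0.0617, adjusted p = 0.0155). The first call depended on single libraries: adjusted p was 0.104 with double-negative replicate 1 left out, 0.0658 with replicate 2 of that group left out and 0.110 with double-positive replicate 1 left out, within a range of 0.00375 to 0.110 over all alternatives. Its size was -0.13 without double-positive replicate 1 and -0.32 after median-ratio rescaling. For the second, adjusted p was 0.0901 and 0.0622 with double-negative replicate 1 or 2 left out and 0.0878 with CD201-only replicate 1 left out, within 0.00781 to 0.0901.

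RARB, which retinoic acid itself is known to raise and whose promoter is shown above, was the lowest of the receptors. It was at 2.99 and 2.85 FPKM in double-negative libraries, 3.51 and 3.91 in CD201-only libraries and 3.94 and 3.89 in double-positive libraries, and again CD201-only and double-positive values overlapped. RARB fell in double-negative against double-positive cells (-0.33, SE 0.0745, adjusted p = 0.00663) and against CD201-only cells (-0.26, SE 0.0745, adjusted p = 0.0298). The call against CD201-only cells was lost with no filter on low values (adjusted p = 0.0632) and with double-negative replicate 1 (0.0839), double-negative replicate 2 (0.133) or CD201-only replicate 2 (0.151) left out, within 0.0120 to 0.151.

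RARA, RARB and RARG together came to 25.9 ± 0.170 FPKM in double-negative cells, 33.3 ± 0.716 in CD201-only cells and 44.0 ± 1.89 in double-positive cells (SD, n = 2 each). RARG made up 48.6% ± 0.0256 of this sum in double-negative cells, 50.8% ± 0.618 in CD201-only cells and 63.5% ± 0.660 in double-positive cells. The share of RARA was 40.1% ± 0.451, 38.0% ± 0.476 and 27.6% ± 0.970 in the same order. These shares are given as descriptions and were not tested.

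ALDH1A3, which makes retinoic acid from retinal, was low. It was at 1.81 and 1.86 FPKM in double-negative libraries, 0.831 and 0.691 in CD201-only libraries and 2.73 and 2.76 in double-positive libraries, in the same group order as CYP26B1 and without overlap. It fell in double-negative against double-positive cells (-0.40, SE 0.0844, adjusted p = 0.00459) and rose against CD201-only cells (0.69, SE 0.0844, adjusted p = 0.000839). With a pseudocount of 0.1 the rise was 1.17. CD201-only cells held 0.277 times the double-positive mean, a log2 difference of -1.09, or -1.73 with a pseudocount of 0.1.

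DHRS3, which returns retinal to retinol and is another gene known to be raised by retinoic acid, lay in a narrow range. It was at 26.9 and 27.4 FPKM in double-negative libraries, 31.1 and 28.2 in CD201-only libraries and 25.5 and 25.6 in double-positive libraries. The log2 difference of double-negative and double-positive cells was 0.09 (95% interval -0.03 to 0.20, adjusted p = 0.164) and was -0.03 after median-ratio rescaling. Against CD201-only cells it was -0.12 (95% interval -0.24 to -0.0046, adjusted p = 0.0950). That difference was called after median-ratio rescaling (-0.16, adjusted p = 0.0398) and without CD201-only replicate 2 (-0.19, adjusted p = 0.0271), within 0.0271 to 0.433. CD201-only cells held 1.16 times the double-positive mean (log2 difference 0.21, or 0.13 after rescaling).

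**Figure D2:**
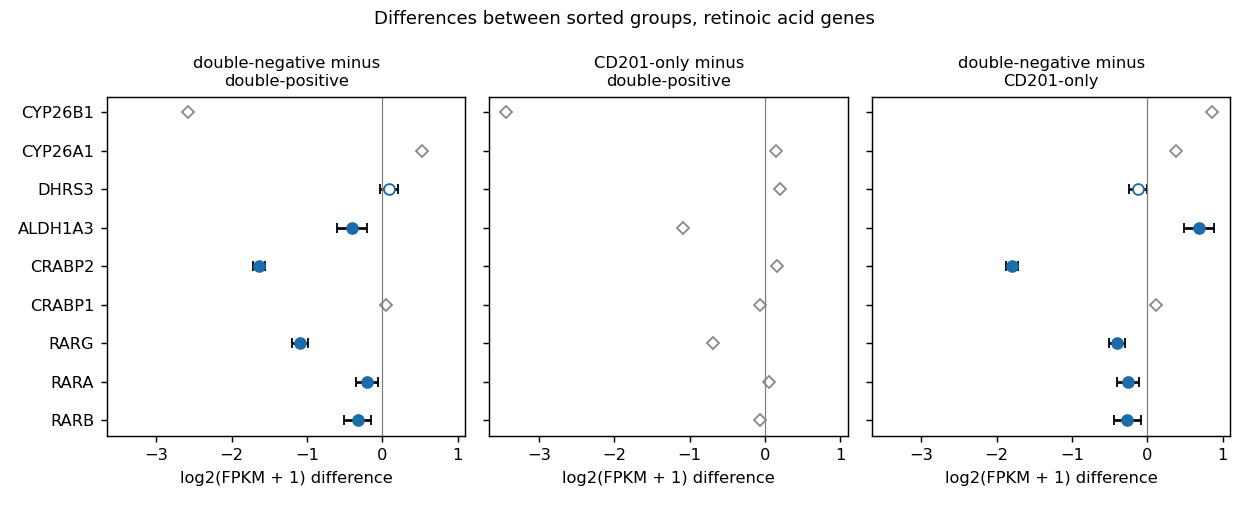
Differences of log2(FPKM + 1) for the 9 genes in the 3 pairs of groups, the first-named group minus the second. Circles are limma estimates with 95% intervals, filled where the adjusted p is under 0.05, and diamonds are differences given without a test. CRABP2 changed by -1.64 and -1.80 in double-negative cells, while the difference of CYP26B1 between CD201-only and double-positive cells was -3.44.

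Of 6 members with a test between double-negative and double-positive cells, 5 fell and 0 rose, where limma called 66.6% of all 12210 genes, 42.1% higher and 24.5% lower. Of the 7 members averaging 1 FPKM or more, 7 did not overlap between these groups, where 83.3% of tested genes did not overlap. Between double-negative and CD201-only cells 4 of 6 fell and 1 rose, where 37.9% of all genes were called, 21.5% higher and 16.5% lower. There 7 of the 7 members did not overlap, where 71.9% of tested genes did not. In CD201-only and double-positive cells, the comparison in which CYP26B1 was chosen, 5 of the 7 members did not overlap. There 79.3% of tested genes did not overlap and 58.7% were called, 35.8% higher and 22.9% lower. The median log2 change of all genes was 0.109, 0.0772 and 0.0364 for double-negative against double-positive, CD201-only against double-positive and double-negative against CD201-only cells. Median-ratio rescaling brought it to 0.00294, 0.00398 and 0.00205. Changes and tests of members are given without that rescaling unless stated, so each is to be read beside the median of all genes. Of the called genes 63.2%, 61.0% and 56.6% were higher in the first-named group, and 48.3%, 48.1% and 47.1% after that rescaling. Each pair of comparisons shares the libraries of 1 group.

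By the distance between log2 profiles over the 6 libraries, each centred on its own mean, the genes nearest to CYP26B1 among 8890 with a group mean of 5 FPKM or more were TMEM119 (distance 0.229), OLFM2 (0.304) and MMP1 (0.443). TMEM119 averaged 5.55 FPKM in double-negative cells, 2.68 in CD201-only cells and 34.4 in double-positive cells. Nearest to CRABP2 were the keratin KRT13 (0.155), the laminin chain LAMB3 (0.157) and LSP1 (0.233), and LAMB3 averaged 3.42, 15.3 and 12.8 FPKM. RARG was nearest to SLC8B1 (0.0432), ZBTB47 (0.0935) and S1PR2 (0.0993), and ALDH1A3 to the caveolin CAV2 (0.116), WWTR1 (0.127) and ASPH (0.160). RARA was nearest to TMEM250, CAPN1 and TYRO3, RARB to SCO2, EHD4 and WASH2P, and DHRS3 to PQBP1, MRPL27 and TMEM251, at distances of 0.0442 to 0.0886.

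The rest of the pathway was taken from lists of 79 genes, of which 54 passed the minimum mean. Between double-negative and double-positive cells 19 rose, 23 fell and 12 were not called. In CD201-only against double-positive cells 18 rose and 23 fell, and in double-negative against CD201-only cells 15 rose and 19 fell. The share called was 77.8%, 75.9% and 63.0% in these 3 comparisons, where 66.6%, 58.7% and 37.9% of all genes were called. A gene that passed only through the group where it is high had to differ, so these counts describe the lists and support nothing about them.

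**Figure D3:**
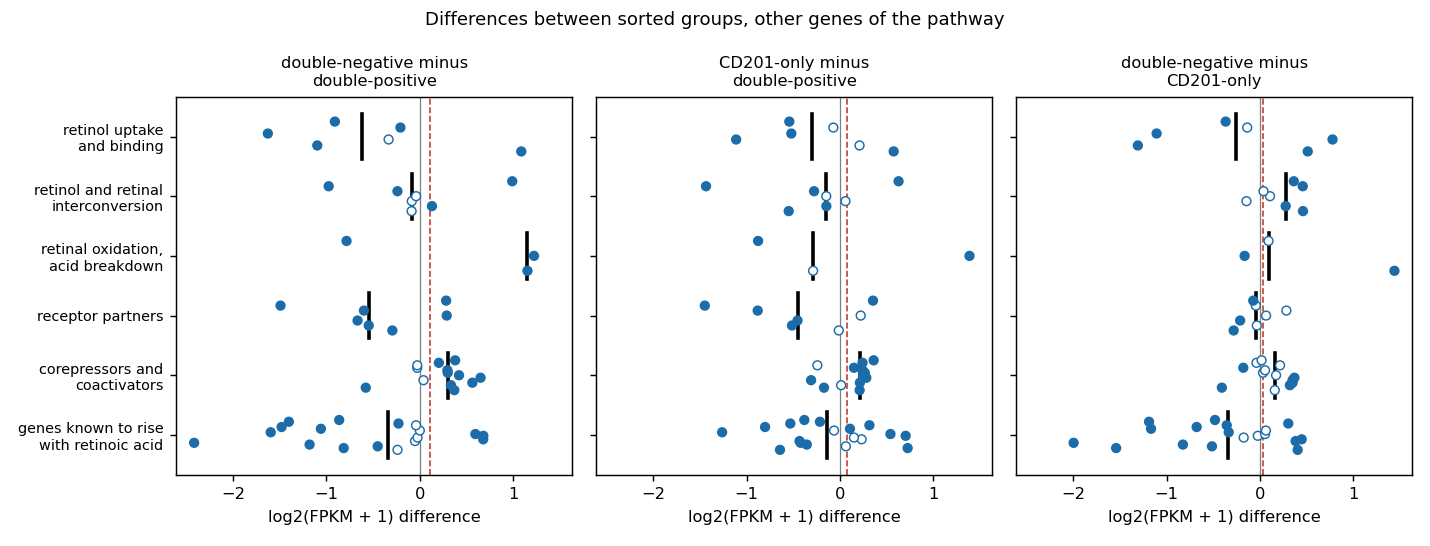
Differences of log2(FPKM + 1) for the 54 tested genes of 6 pathway lists, the first-named group minus the second. Points are genes, filled where the adjusted p is under 0.05, black bars are list medians and the red dashed line is the median of all 12210 genes. Genes known to rise with retinoic acid had medians of -0.35, -0.14 and -0.35, and corepressors and coactivators 0.30, 0.21 and 0.16.

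Genes of retinol uptake and binding moved in both directions. STRA6, the membrane receptor that takes up retinol and a gene known to rise with retinoic acid, was at 19.3 and 18.8 FPKM in double-negative libraries, 42.9 and 41.5 in CD201-only libraries and 61.2 and 60.7 in double-positive libraries. It fell in double-negative against double-positive cells (-1.63, adjusted p = 1.04e-07) and against CD201-only cells (-1.11, adjusted p = 1.81e-06), and in CD201-only against double-positive cells (-0.52, adjusted p = 1.73e-05). The endocytic receptor LRP1 fell in double-negative (-0.91, adjusted p = 6.34e-07) and in CD201-only cells (-0.54, adjusted p = 7.3e-06) against double-positive cells. RBP7, a cellular retinol-binding protein, fell in CD201-only against double-positive cells (-1.11, adjusted p = 0.00158). Of 6 tested genes in this list, 1 rose and 4 fell between double-negative and double-positive cells, with a median of -0.62. Of all genes, 66.6% were called there, 42.1% higher and 24.5% lower.

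The ALDH1A transcripts were mainly ALDH1A1 and ALDH1A2, not ALDH1A3. ALDH1A1 was at 116 and 116 FPKM in double-negative libraries, 38.9 and 45.8 in CD201-only libraries and 45.4 and 58.9 in double-positive libraries. It rose in double-negative cells by 1.15 against double-positive cells (SE 0.119, adjusted p = 0.000139) and by 1.44 against CD201-only cells (SE 0.119, adjusted p = 0.000127). ALDH1A2 was at 51.2 and 51.5 FPKM in double-negative libraries, 56.4 and 59.1 in CD201-only libraries and 20.9 and 22.0 in double-positive libraries. It rose against double-positive cells by 1.22 in double-negative (SE 0.0393, adjusted p = 6.06e-07) and by 1.39 in CD201-only cells (SE 0.0393, adjusted p = 4.79e-07). The ALDH1A sum was 169 ± 0.0125 FPKM in double-negative cells, 101 ± 6.67 in CD201-only cells and 76.4 ± 10.4 in double-positive cells, and ALDH1A3 was 1.08%, 0.760% and 3.63% of it. ALDH1A transcripts stood at 37.7 ± 0.842 times CYP26A1 plus CYP26B1 in double-negative cells, 52.0 ± 1.20 times in CD201-only cells and 2.71 ± 0.451 times in double-positive cells. This ratio of RNA levels rests largely on CYP26B1, the gene chosen for its difference, and enzyme activity was not measured.

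**Figure D4:**
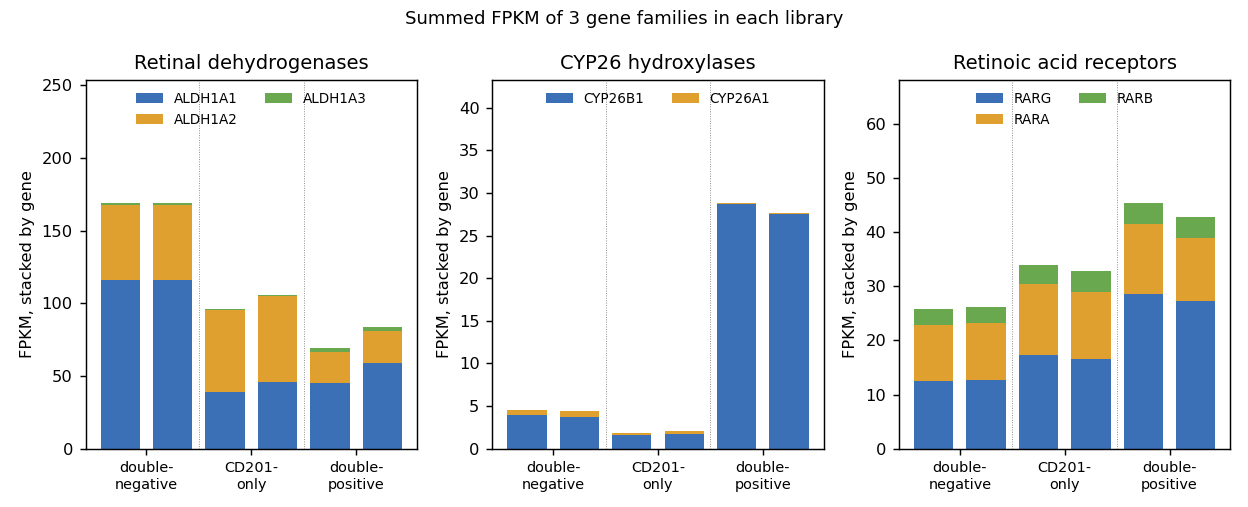
FPKM of retinal dehydrogenases, CYP26 hydroxylases and retinoic acid receptors, stacked by gene, with 1 bar per library and 2 libraries per group. The ALDH1A sum was highest in double-negative cells (169 FPKM on average), while the CYP26 and RAR sums were highest in double-positive cells (28.2 and 44.0 FPKM).

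Among enzymes that interconvert retinol and retinal, AKR1C3, which reduces retinal and other carbonyls, rose against double-positive cells by 0.99 in double-negative (adjusted p = 0.000202) and by 0.63 in CD201-only cells (adjusted p = 0.00235), though it has near-identical paralogs among which the counting could split reads. RDH10, a main retinol dehydrogenase of embryos, fell in CD201-only against double-positive cells, at 7.39 ± 0.774 and 11.3 ± 0.151 FPKM (-0.55, adjusted p = 0.000589). CYP1B1, a cytochrome that can oxidise retinal, fell against double-positive cells in double-negative (-0.79, adjusted p = 3.8e-05) and in CD201-only cells (-0.88, adjusted p = 2.66e-05). CYP26C1, the third enzyme of its family, was under the minimum mean, at 0.193 FPKM or less in every library.

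The list of receptor partners and nuclear binding holds the RXRs and other nuclear proteins that bind retinoic acid or share DNA sites with RARs. Of 7 tested, 2 rose and 5 fell in double-negative, and 1 rose and 4 fell in CD201-only cells, against double-positive cells, where 66.6% and 58.7% of all genes were called. RXRA, a partner that binds DNA with RARs, averaged 12.7 FPKM in double-negative cells, 15.7 in CD201-only cells and 15.9 in double-positive cells. It fell in double-negative against double-positive cells (-0.30, adjusted p = 0.00100), and its difference in CD201-only cells was -0.01 (adjusted p = 0.828). RXRB, a partner of the same kind, was at 17.3 ± 0.915 FPKM in double-negative cells, 17.8 ± 0.342 in CD201-only cells and 25.8 ± 0.615 in double-positive cells, and fell in both (-0.55, adjusted p = 5.81e-05, and -0.51, adjusted p = 9.82e-05). NR2F2, an orphan receptor of mesenchymal cells, fell in double-negative (-1.49, adjusted p = 3.3e-06) and in CD201-only cells (-1.45, adjusted p = 4.67e-06). PPARD, a nuclear receptor reported to bind retinoic acid, fell in double-negative against double-positive cells (-0.67, adjusted p = 2.83e-05). Of 13 corepressors and coactivators, 9 rose and 1 fell in double-negative against double-positive cells (median 0.30, against 0.109 for all genes), and 9 rose and 2 fell in CD201-only against double-positive cells. After median-ratio rescaling 8 rose and 1 fell in double-negative, and 4 rose and 3 fell in CD201-only cells. The list medians were then 0.18 and 0.14, against 0.00294 and 0.00398 for all genes. Of all genes called with that scaling, 48.3% and 48.1% were higher. Between double-negative and double-positive cells the coactivator NCOA2 rose by 0.56 (adjusted p = 0.000272).

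Genes known to rise with retinoic acid in other cells were split. Of 18 tested, 3 rose and 10 fell in double-negative against double-positive cells, 5 rose and 9 fell in CD201-only against double-positive cells, and 4 rose and 10 fell in double-negative against CD201-only cells. Of all genes, 66.6%, 58.7% and 37.9% were called in these comparisons, with 24.5%, 22.9% and 16.5% lower. After median-ratio rescaling 3 of the 18 rose and 14 fell in the first comparison, with a median of -0.46 against 0.00294 for all genes. With that scaling, 48.3% of the 7556 called genes were higher, against 63.2% of 8130 without it. TGM2, a transglutaminase, was at 21.2 and 20.3 FPKM in double-negative libraries, 86.2 and 85.2 in CD201-only libraries and 116 and 114 in double-positive libraries. It fell in double-negative against double-positive (-2.42, adjusted p = 1.9e-08) and against CD201-only cells (-2.00, adjusted p = 1.71e-07). IGFBP6, a binding protein of insulin-like growth factor, fell in double-negative cells against double-positive (-1.40, adjusted p = 6.59e-08) and CD201-only cells (-1.19, adjusted p = 3.97e-07), as did the plasminogen activator PLAT (-1.06, adjusted p = 5.2e-07, and -1.17, adjusted p = 1.17e-06). Like CRABP2, these 3 genes were lower in double-negative cells than in both CD201+ groups.

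Other such genes differed in their pattern. RARRES2, which encodes the chemoattractant chemerin, was at 13.2 ± 0.282 FPKM in double-negative cells, 40.2 ± 0.723 in CD201-only cells and 23.9 ± 0.239 in double-positive cells. It fell in double-negative against CD201-only cells (-1.54, adjusted p = 6.86e-07) and rose in CD201-only against double-positive cells (0.72, adjusted p = 5.49e-06). TNFAIP2 fell against double-positive cells in double-negative (-1.60, adjusted p = 3.84e-07) and CD201-only cells (-1.26, adjusted p = 1.26e-06). The homeobox gene MEIS2 rose in CD201-only against double-positive cells (0.70, adjusted p = 1.85e-05), and RARRES1 fell there (-0.64, adjusted p = 0.00236).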

How the data were processed

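A matrix of FPKM values was deposited, with 6 library columns and 0 left unassigned. STAR and Cuffnorm on hg19 and GRCh37 made it, per the submitters' processing notes. Options, versions, annotation and library scaling were not given in the sources used here. Libraries were poly-A selected and stranded, per the labels' protocols. Absolute depth is unknown. Relative depth was the most common ratio of low values (under 1 FPKM) between libraries.

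A pseudocount of 1 was added before taking log2. The 12210 genes averaging 1 FPKM or more entered limma 3.58.1 (R 4.3.3), which had 1 coefficient per group and a variance trend. The fit had 3 residual degrees of freedom. P-values were adjusted by Benjamini-Hochberg over all genes in each comparison and called under 0.05. The fit was also run on simulated data with changes planted in a small set of genes of the double-negative libraries. Far more genes were called in the real libraries, so that run does not bear on the p-values given here.

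Members and lists were chosen with earlier results of these data known. Named genes were all members and, per pathway list and comparison, up to 4 called genes with the largest changes of at least 0.5, without overlap and with 5 FPKM or more in the higher group, plus the 3 genes nearest in profile to each tested member and the genes of the sorted proteins. Some genes that meet this rule are not reported here. CYP26C1, RXRA and the single cell type markers THY1, VIM, NANOG, UTF1, KRT5, KRT14, KRT10, IVL, TEK, PECAM1, CDH5 and VWF were named after their values were seen. So were the epithelial markers KRT8, KRT18, CDH1, EPCAM, CLDN6 and ESRP1. Alternatives changed the pseudocount, filter, scaling, variance model, libraries and pairing. Promoters came from RefSeq windows, in which all 9 members matched by symbol. Tables and plots used Python 3.11.15, pandas 2.3.3, numpy 2.4.6 and matplotlib 3.10.9.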

Additional observations from a re-analysis of the deposited data

How the results depend on the processing

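In the comparison of double-negative and CD201-only cells, leaving out a double-negative library lowered the count of called genes to 2892 (without replicate 1) and 3048 (without replicate 2), against 4632, and the members called to 3 in each case, against 5. Leaving out any 1 library gave 2892 to 4910 called genes and 3 to 5 members there, 6849 to 7937 genes and 4 to 5 members in double-negative against double-positive cells, and 5955 to 6763 genes in CD201-only against double-positive cells. The other counts stayed within 1.5 times. No direction of a called member, or of a pathway gene named by the rule above, turned under any alternative run. Of 798 values of named genes and members recomputed, 16 lost and 2 gained their call, among them those of RARA, RARB and DHRS3 given above, and 13 without a test moved by more than the replicate SD.

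The labels do not say that replicate numbers mark a shared culture. Deviations of same-numbered libraries correlated at 0.0761, -0.0727 and 0.117. When the replicate block was fitted, 8110, 7189 and 4590 genes were called, against 8130, 7165 and 4632, and 5 members were called in each comparison with double-negative cells, as without it. With 2 libraries a group, precision for CYP26A1 and CRABP1, under 1 FPKM, is limited by depth.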
